A study of Mus musculus with 12 samples.

Results

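The 9 genes described here encode the machinery of antigen presentation by MHC class II, and they were taken by symbol from the 17734 genes measured by RNA-seq in mouse rectal tissue. They are H2-Aa, H2-Ab1 and H2-Eb1 (chains of the class II molecules), H2-DMa, H2-DMb1 and H2-DMb2 (chains of H2-DM), Cd74 (the invariant chain), Ctss (cathepsin S) and Ciita (the class II transactivator). All 9 were found and all 9 had a mean above the filter of 0.1 FPKM (reads scaled to transcript length and library depth) over the 12 mice. The 6 H2 genes lie together on chromosome 17, whereas Cd74 is on chromosome 18, Ciita on chromosome 16 and Ctss on chromosome 3.

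The 12 samples were rectal tissue from male C57BL/6 mice aged 8 to 10 weeks, with 3 in each of 4 groups. Normal mice drank water, and colitis mice drank 2.5% dextran sulfate sodium (DSS), a polymer that injures the colonic lining, for 7 days. The other two groups had the same drink and were also given BBR, which is berberine, a plant alkaloid, by gavage at 100 mg/kg (6 days by the labels). The labels name the tissue colorectum. They number the samples but do not say that each came from a separate animal, so p-values measure only the spread between these samples, called mice here. The comparisons share groups (the colitis mice enter several of them), so that they are not independent of each other.

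MHC class II molecules are pairs of an α and a β chain that display peptides to CD4 T cells. In the endoplasmic reticulum the pair binds the invariant chain, which endosomal proteases then trim, cathepsin S taking a late step, and H2-DM exchanges the remaining fragment for an antigen peptide. Dendritic cells, B cells and macrophages carry class II at all times, and epithelium can gain it under interferon-gamma through Ciita, a coactivator that binds no DNA itself and sits on factors bound to a shared promoter element, the X and Y boxes.

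The stretch of promoter that the class II genes have in common is shown for the 4 members in whose window of 250 bases before to 50 after the RefSeq gene start (GRCm38.p6) it was found. Capitals mark AAC and TGATTGG, separated by 20 to 30 bases, a pattern written down after these windows had been read and searched on both strands. TGATTGG ends in ATTGG, the complement of CCAAT.
H2-Aa, chr17:34287867-34287904, minus strand: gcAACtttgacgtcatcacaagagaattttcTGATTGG
H2-Eb1, chr17:34305776-34305812, plus strand: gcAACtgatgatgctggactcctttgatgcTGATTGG
H2-DMb1, chr17:34153097-34153134, plus strand: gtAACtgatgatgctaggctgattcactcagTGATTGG
H2-DMb2, chr17:34145126-34145163, plus strand: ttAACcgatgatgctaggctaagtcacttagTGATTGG
The pattern was in 4 of the 6 members with an entry and in 0.910% of the 32851 windows of all genes (299 windows), and TGATTGG alone was in 7.23% of them. It was not found in the windows of H2-DMa and Ctss, and H2-Ab1, Cd74 and Ciita had no entry in the set of promoter windows used, although they have annotated transcripts. The windows of H2-Oa, H2-Ob and H2-Eb2, class II genes that are not members, also held it (3 of 3). A match to these letters is a description of the window and not a binding site.

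Some facts of the libraries touch every value. In the 8 mice numbered 1 to 3 the deposited values summed to between 696286 and 765876, and in the 4 mice numbered 4, of which each group had 1, to between 482194 and 504337. The steps between low values fitted transcript lengths shortened by 260 to 300 bases in the former and by 40 to 60 bases in the latter, with depths of 14.8 to 16.4 and 17.2 to 19.6 (in 1000000 reads) implied. On that scale transcripts under 800 bases had a median log2 difference of -0.73 in the mice numbered 4 against the others and those over 3000 bases one of 0.37, so the members' medians are also given within each set of mice. The epithelial markers were detected in every mouse (8 of 8 genes, summed FPKM of 9859 to 17027), and smooth muscle markers summed to 1160 to 2382 FPKM in normal mice and 45.6 to 477 in colitis mice, all 7 of them lower. With BBR the smooth muscle sums were 1722 to 3596 FPKM in normal mice and 285 to 2749 FPKM in colitis mice.

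The class II genes differed widely in level. Averaged over all mice, Ctss had 442 FPKM and ranked 237 of 17734 genes, followed by Cd74 (174), H2-Aa (137), H2-Ab1 (82.4), H2-Eb1 (33.3), H2-DMb1 (10.3), H2-DMa (5.36), H2-DMb2 (1.69) and Ciita (0.933), which ranked 12077. By the implied depths the lowest value of H2-DMb2 rested on about 8.09 reads and that of Ciita on about 24.1, whereas no other member fell below 43.7. Within every member the 12 mice differed by a factor of 2.70 (Ctss) to 8.17 (H2-DMb2) between the lowest and the highest. Colitis mice had the highest group mean for 7 of the 9 genes and colitis mice receiving BBR the lowest for 7 of 9. Among the 27 pairs of groups next to each other in the order of means, only 1 did not overlap, H2-DMa in normal mice and in colitis mice receiving BBR.

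H2-Aa encodes the α chain of the I-A molecule. It measured 102, 145 and 108 FPKM in normal mice 1, 3 and 4, and 149, 263 and 153 FPKM in colitis mice 1, 2 and 4. In normal mice receiving BBR it measured 138, 252 and 95.1 FPKM (mice 1, 3 and 4). Colitis mice receiving BBR (2, 3 and 4) had 64.1, 140.0 and 37.0 FPKM. All colitis mice thus lay above all normal mice and above all colitis mice receiving BBR, while mouse 3 of the normal mice receiving BBR came close to the highest colitis mouse. H2-Ab1, the partner β chain, had 65.0, 87.3 and 63.6 FPKM in normal mice and 100.8, 145 and 111 in colitis mice. In the BBR groups it had 68.2, 149.6 and 42.8 FPKM (normal) and 43.6, 82.3 and 29.4 FPKM (colitis). The same mouse of each group was highest as for H2-Aa. The ratio of H2-Aa to H2-Ab1 within a mouse averaged 1.65 ± 0.0669 in normal and 1.56 ± 0.230 in colitis mice, and with BBR 1.97 ± 0.273 and 1.48 ± 0.221 (SD, n = 3 each). H2-Eb1, the β chain of I-E, had 30.2, 35.3 and 33.9 FPKM in normal mice and 37.5, 61.4 and 42.3 FPKM in colitis mice. With BBR it had 30.4, 56.8 and 16.98 FPKM (normal) and 10.5, 31.0 and 13.9 FPKM (colitis), so that all colitis mice were again above all normal mice and above all colitis mice receiving BBR. Its α chain partner H2-Ea was listed at 0 in all 12 mice, and the C57BL/6 strain is known to carry a defective copy of it.

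H2-DM loads peptide and is made of the H2-DMa chain and a β chain from H2-DMb1 or H2-DMb2. H2-DMb1 measured 6.03, 7.97 and 6.19 FPKM in normal mice and 14.4, 19.7 and 18.9 in colitis mice, the largest ratio of means among the members (17.7 ± 2.87 against 6.73 ± 1.08 FPKM, SD, n = 3 each, a ratio of 2.63). With BBR it measured 7.92, 15.3 and 4.13 FPKM in normal mice and 5, 14.3 and 4 FPKM in colitis mice, where mouse 3 alone approached the colitis mice. H2-DMa measured 4.54, 4.73 and 5.19 FPKM in normal mice and 6.40, 8.89 and 7.78 FPKM in colitis mice. With BBR it measured 5.02, 8.49 and 2.81 FPKM (normal) and 2.11, 4.37 and 4.02 FPKM (colitis), the latter below all normal mice too. The ratio of H2-DMb1 to H2-DMa within a mouse was 1.19 to 1.68 in normal mice and 2.22 to 2.43 in colitis mice, without overlap, in a design where the exact two-sided permutation test cannot go below p = 0.1. In colitis mice receiving BBR this ratio spread from 0.995 to 3.26. Of the other ratios formed, H2-DMb1 to H2-Ab1 also separated normal (0.0913 to 0.0973) from colitis mice (0.136 to 0.171). So did H2-DMb2 to H2-DMb1 (0.104 to 0.620 and 0.0855 to 0.0988), and the rest overlapped. H2-DMb2 was low in all groups (0.470 to 3.84 FPKM) and was highest in mouse 4 of the normal mice and in mouse 3 of the normal mice receiving BBR (3.56 FPKM). Of the 50-base windows of the H2-DMb1 transcript 27.2% are also found in H2-DMb2, so reads can be divided between the pair and both values are uncertain; no window of the other members was shared.

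Cd74, the chaperone of the newly made chains, measured 120.2, 157 and 180.4 FPKM in normal mice and 168, 300.5 and 321 in colitis mice. With BBR it measured 128, 301 and 102 FPKM in normal mice and 64.5, 169 and 73.8 FPKM in colitis mice. The colitis groups with and without BBR met at a single pair of mice, 169.4 and 167.7 FPKM. Cathepsin S kept a different pattern. Ctss had 369, 466 and 273 FPKM in normal mice and 459, 575 and 293 FPKM in colitis mice. With BBR it had 495, 476 and 404 FPKM (normal) and 735, 459.8 and 306 FPKM (colitis). The groups overlapped throughout, and the mouse numbered 4 was the lowest of its group in all 4 groups. Ciita, the coactivator of the class II genes, was near the lower end, with 0.530, 0.830 and 1.22 FPKM in normal mice and 1.38, 0.730 and 1.79 in colitis mice. In the BBR groups it had 0.550, 1.57 and 0.470 FPKM (normal) and 0.280, 1.04 and 0.810 FPKM (colitis), and the groups overlapped in every comparison.

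**Figure D1:**
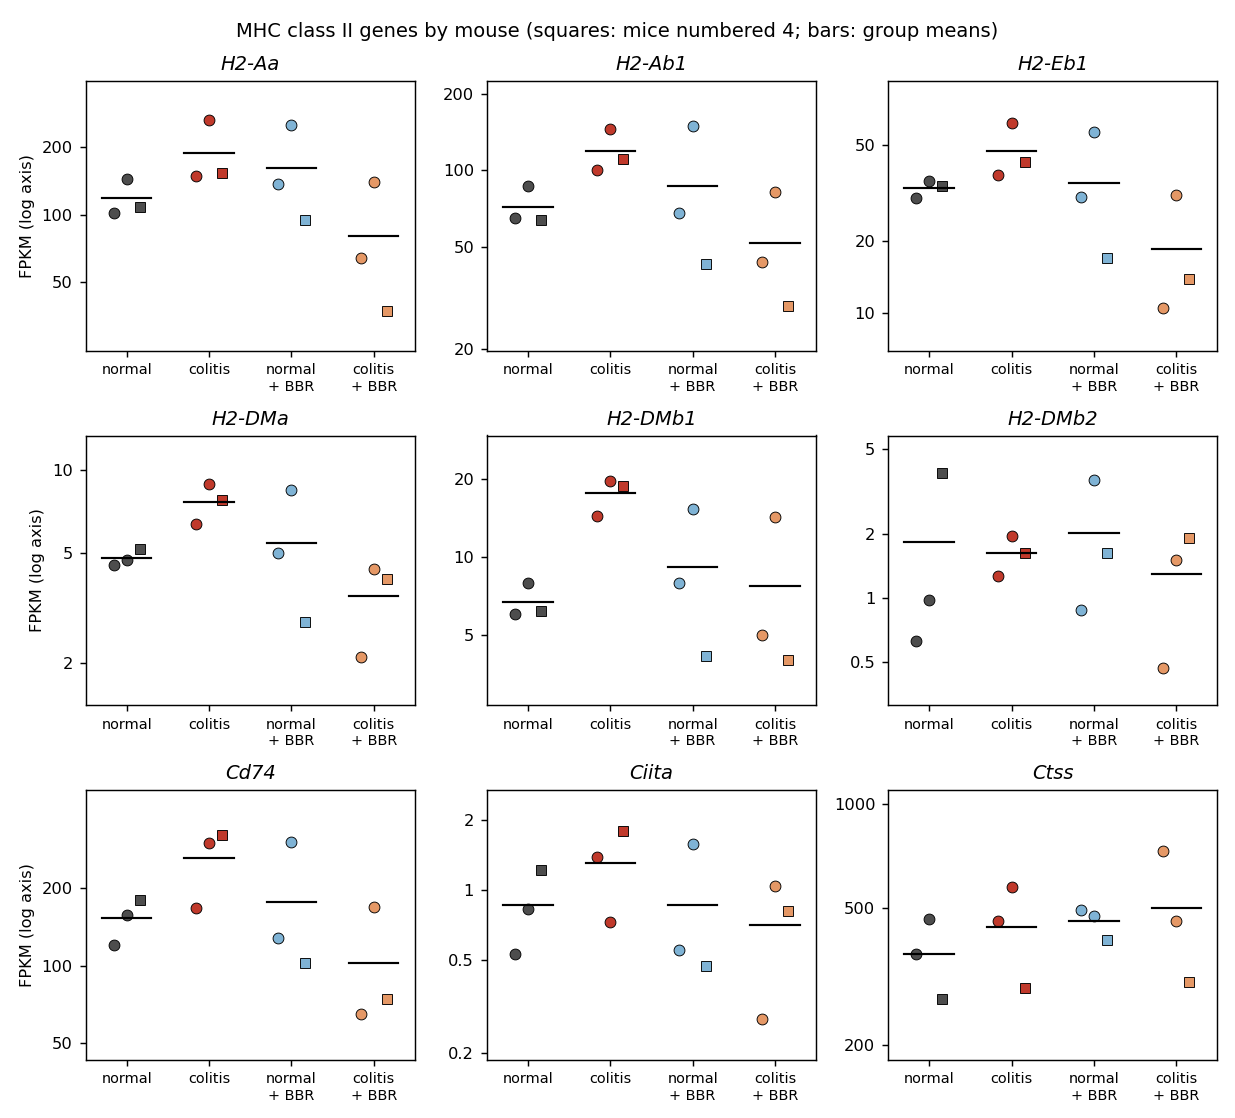
FPKM on a log axis of the 9 MHC class II genes in each of the 12 mice, 1 panel per gene, with mice in their 4 groups, squares for the mice numbered 4 and bars for group means. For H2-Aa, H2-Ab1, H2-Eb1, H2-DMa and H2-DMb1 the 3 colitis mice lie above the 3 normal mice and above the 3 colitis mice receiving BBR.

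The first comparison asked what DSS colitis alone did to these genes. On the log2 scale of FPKM plus 0.1, all 9 members were higher in colitis mice, with a median difference of 0.63 where the median over all 15315 tested genes was -0.32. None passed an adjusted p of 0.05 (limma over all tested genes, Benjamini-Hochberg), against 1.08% of all genes, and 1 of 9 had an unadjusted p under 0.05 in the higher direction, against 5.56% of all genes. That gene was H2-DMb1, with a log2 fold change of 1.38 (SE 0.49, 95% interval 0.30 to 2.46, limma adjusted p = 0.153). Cd74 followed with 0.75 (SE 0.45, adjusted p = 0.335), H2-Ab1 with 0.72 (SE 0.44, adjusted p = 0.336), H2-DMa with 0.65 (SE 0.38, adjusted p = 0.319), H2-Aa with 0.63 (SE 0.47, adjusted p = 0.416), Ciita with 0.53 (SE 0.55, adjusted p = 0.563) and H2-Eb1 with 0.48 (SE 0.44, adjusted p = 0.516). Ctss (0.24, SE 0.36, adjusted p = 0.697) and H2-DMb2 (0.21, SE 0.68, adjusted p = 0.864) had the lowest values, and the means of H2-DMb2 themselves were lower in colitis mice (ratio of 0.888). For 5 of 9 members every colitis mouse exceeded every normal mouse, against 7.10% of all genes. Within the mice numbered 1 to 3 the median of the members was 0.69 with 9 higher, and in the mice numbered 4 it was 0.52 with 8 higher. H2-DMb1 passed in a fit of these 2 groups alone (limma adjusted p = 0.0219), where 4 members were higher at an unadjusted p under 0.05 (5.98% of all genes), as were 3 with each mouse centred on its median (9.42%). It also passed with a replicate block, where 5 members were higher at an unadjusted p under 0.05 (7.47%).

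The second comparison asked how BBR changed these genes in colitis. In colitis mice receiving BBR 8 of 9 members were lower than in colitis mice, and their median was -1.31 on the log2 scale, that of all genes being -0.09. By ratio of means 6 of them stood at 0.392 (H2-Eb1), 0.390 (Cd74), 0.427 (H2-Aa), 0.435 (H2-Ab1), 0.438 (H2-DMb1) and 0.455 (H2-DMa) of the colitis level. Ciita stood at 0.546, H2-DMb2 at 0.804 and Ctss, the member that was not lower, at 1.13. None passed the adjusted limit, which 0% of all genes passed, so no member can be said to have changed. At an unadjusted p under 0.05 there were 6 lower members, against 5.20% of all genes (796 of 15315). They were H2-Eb1 (-1.47, SE 0.44, limma adjusted p = 0.512), Cd74 (-1.44, SE 0.45, adjusted p = 0.545), H2-DMb1 (-1.40, SE 0.49, adjusted p = 0.615), H2-Aa (-1.39, SE 0.47, adjusted p = 0.586), H2-Ab1 (-1.31, SE 0.44, adjusted p = 0.585) and H2-DMa (-1.17, SE 0.38, adjusted p = 0.568). The remaining values were -0.85 for Ciita (SE 0.55, adjusted p = 0.963), -0.46 for H2-DMb2 (SE 0.68, adjusted p = 1.00) and 0.14 for Ctss (SE 0.36, adjusted p = 1.00). For 5 members every colitis mouse receiving BBR lay below every colitis mouse, against 5.66% of all genes. The unadjusted count rested on single mice. Among the colitis mice receiving BBR it was 3 without mouse 4 (9.54% of all genes in that fit, members' median -1.01) and 4 without mouse 2 (2.46%, median -1.14). It was 7 with a replicate block (8.98%), and 2 over the mice numbered 1 to 3 (6.21%), where the median was -1.01. In the pair of mice numbered 4 the median was -1.60.

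**Figure D2:**
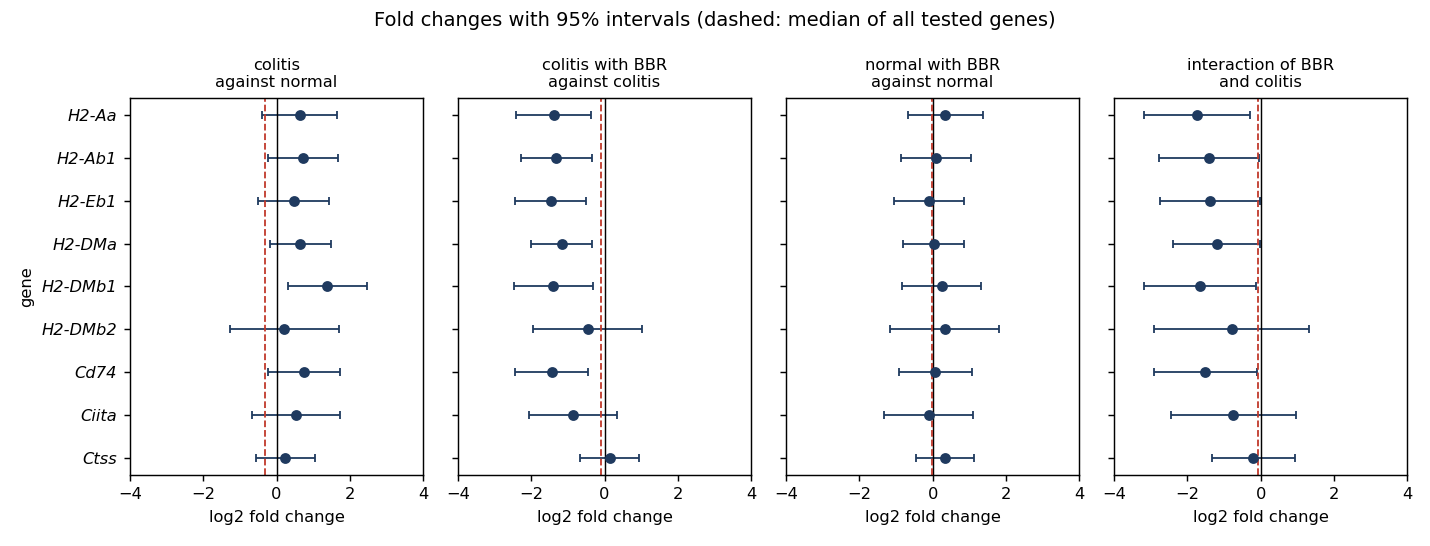
Log2 fold changes of the 9 genes (limma on log2 of FPKM plus 0.1) with 95% intervals, 1 panel for each of 3 comparisons and the interaction, with the median of all tested genes as a dashed line. In colitis mice the 9 points lie above 0, and under BBR in colitis 8 lie below 0, with Ctss at 0.14.

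The third comparison asked what BBR did in the absence of colitis. Normal mice receiving BBR had 7 members higher and 2 lower than normal mice, with a median of 0.09 and values from -0.11 (Ciita) to 0.35 (H2-Aa), and none passed the adjusted limit (0% of all genes) or had an unadjusted p under 0.05 (1.36% of all genes). No member separated the groups, against 9.62% of all genes. In the 3 pairs of the same number Ctss was higher with BBR in 3 and each other member in 2, and with the pairs as a block Ctss had 0.34 (SE 0.18, limma adjusted p = 1.00). The spread among the normal mice receiving BBR was wide, since mouse 3 was the highest of its group for 8 of the 9 genes and mouse 4 the lowest for 8. Without mouse 3 only 1 member was higher and the median was -0.35. The sign likewise differed between the sets, at 0.49 with 9 higher for the mice numbered 1 to 3 and -0.82 with 8 lower in the pair numbered 4.

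The interaction, the effect of BBR in colitis minus its effect in normal mice, was negative for all 9 members, with a median of -1.37 against -0.08 over all genes. None of the 9, as 0% of all genes, passed the adjusted limit (adjusted p of 1.00 for each). An unadjusted p under 0.05 was found for 6 members, against 1.72% of all genes in that direction, led by H2-Aa (-1.74, SE 0.66), H2-DMb1 (-1.65) and Cd74 (-1.51). This count went from 6 to 0 with each mouse centred on its median (0.875% of all genes) and to 1 under quantile normalization (1.35%). The members' medians in those fits were -1.26 and -1.21. It was 6 without normal BBR mouse 4 (1.87% of all genes), colitis BBR mouse 3 (3.73%) or colitis mouse 1 (2.31%). Without any other single mouse it was 0 to 3 (1.01% to 2.81%). The 0 was found without normal BBR mouse 3 (1.16%, members' median -0.92) or colitis mouse 2 (1.40%, median -1.16). Over the mice numbered 1 to 3 it was 2 (2.51%), with a median of -1.65. Against normal mice, colitis mice receiving BBR had 8 of 9 members lower (median -0.51, all genes -0.42), and against normal mice receiving BBR also 8 lower (median -0.58, all genes -0.40). No member was called in either, against 0.0196% and 0.0392% of all genes, and 1 member was lower at an unadjusted p under 0.05 in each, H2-Eb1 (-0.99) and H2-Aa (-1.10), against 18.3% and 17.3% of all genes. With single mice left out the former count was 0 to 4 (4 without colitis BBR mouse 3, 8.85% of all genes) and the latter 0 to 5 (5 without normal BBR mouse 4, 13.0%). H2-DMa alone separated the groups in the former, against 20.8% of all genes in that direction. Under quantile normalization, which moved the medians of all genes to -0.01 and -0.03, these splits became 5 higher and 4 lower, and 3 higher and 6 lower. Leaving out 1 mouse also moved the medians, to -0.20 with 4 higher against normal mice (without colitis BBR mouse 2) and to -0.17 with 3 higher against normal mice receiving BBR (without normal BBR mouse 3). The medians were -0.33 and -0.91 over the mice numbered 1 to 3, and -0.97 and -0.29 in the mice numbered 4.

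In bulk tissue, fewer cells of a type and less RNA per cell cannot be told apart. Against normal mice, colitis mice had 8 of 10 macrophage and monocyte markers higher (median log2 fold change 0.35), 6 of 10 dendritic cell, 5 of 7 T cell, 2 of 10 B cell and 6 of 6 neutrophil markers higher, and all 5 endothelial markers lower, of which only the neutrophil gene S100a8 passed the adjusted limit. The 10 macrophage and monocyte markers were all lower in colitis mice receiving BBR than in colitis mice (median log2 fold change of -1.14, 8 at an unadjusted p under 0.05 against 5.20% of all genes, none adjusted). Their summed FPKM was 87.4 to 129 against 153 to 451, without overlap (5.66% of all genes lay apart in that direction) and with no marker at 0 in any mouse. The 451 was colitis mouse 2 alone, the others having 153 and 166, and normal mice had 142 to 202. C1qa, C1qb and C1qc had the highest means of this list in every group. Of the 10 markers of conventional dendritic cells 9 were lower under BBR in colitis (median -0.70, 2 unadjusted), with sums of 3.14 to 6.94 against 5.36 to 17.6 FPKM, which overlap. The 7 T cell markers tested were lower as well, as were 6 of 6 neutrophil markers (median -1.41) and 4 of 5 endothelial ones, whereas the 10 B cell markers had 6 higher and 4 lower. All 7 smooth muscle markers were higher (median 1.498), and none of these lists had an adjusted call. The smooth muscle sum was 2749 FPKM in mouse 4 of the colitis mice receiving BBR, and 316 and 285 FPKM in mice 2 and 3 of that group. Mouse 4 was the lowest of that group for H2-Aa, H2-Ab1, H2-DMb1 and Ctss. For H2-Eb1, H2-DMa, H2-DMb2, Cd74 and Ciita mouse 2 was the lowest. The B cell sum was 27.8 FPKM in mouse 4 of the normal mice and 23.7 in mouse 3 of the normal mice receiving BBR, and 2.37 to 11.2 in the other 10, and these are the mice in which H2-DMb2 was highest. Without this pair of mice the members had medians of 0.71 (colitis against normal, 9 higher), -1.31 (BBR in colitis, 8 lower), -0.27 (BBR in normal mice, 7 lower) and -0.95 (interaction, 8 lower), with none adjusted and none of the interaction values unadjusted. Relative to Ptprc, the CD45 of all leukocytes, H2-Ab1 stood at 27.8 ± 11.2 in normal and 26.3 ± 5.48 in colitis mice, and with BBR at 27.3 ± 10.4 and 19.8 ± 2.77 (ratio within a mouse, SD, n = 3 each; Ptprc was picked after its values were seen). The part of these cells in the class II values was not tested.

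**Figure D3:**
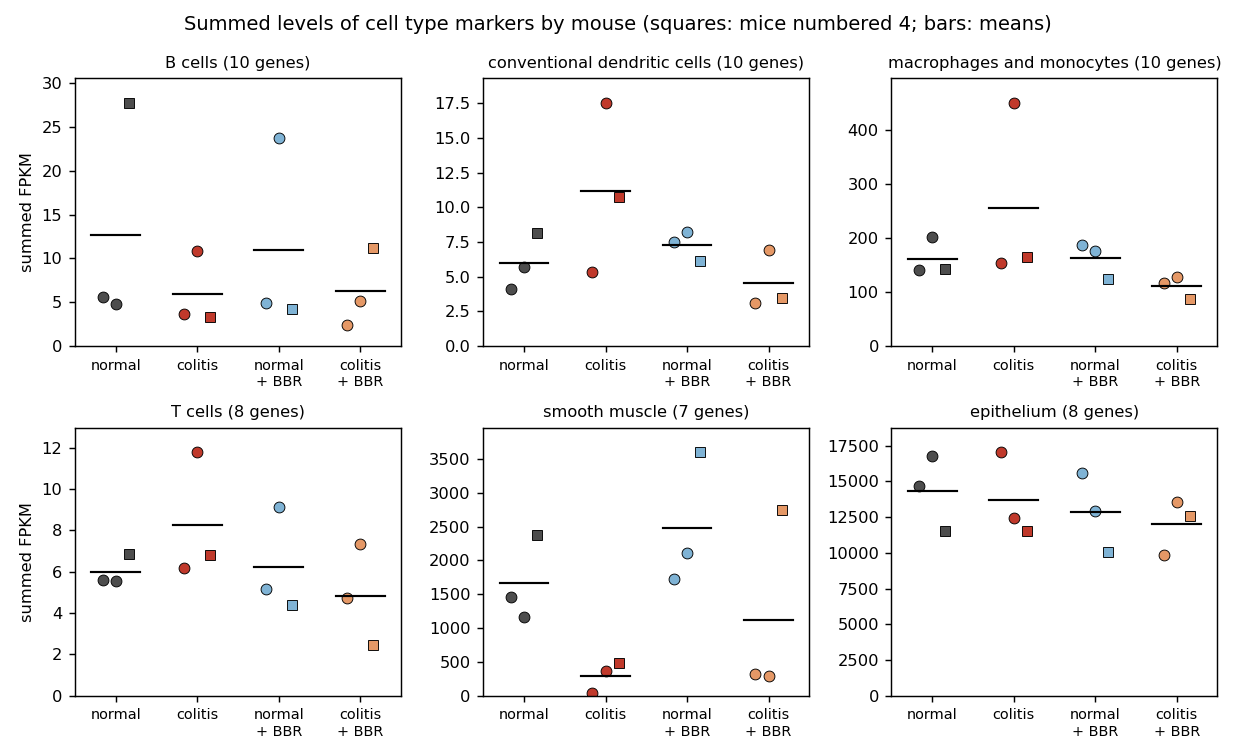
Summed FPKM (linear axes from 0) of the marker genes of 6 cell types in each mouse, by group, with squares for the mice numbered 4 and bars for group means. Macrophage and monocyte markers in colitis mice receiving BBR (87.4 to 129) lie below those of colitis mice (153 to 451), and the B cell sum stands out in 2 mice (27.8 and 23.7).

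Genes that act with the members were taken from 5 lists. Of 7 promoter factors, the RFX, NF-Y and CREB1 proteins on which Ciita sits, all 7 were lower in colitis mice, with a median of -0.32, which was also that of all genes, and none passed. Nfyc, the most abundant, had 34.2 ± 2.33 FPKM in normal and 28.0 ± 6.39 in colitis mice (log2 fold change -0.31, adjusted p = 0.381), Nfya had -0.31 (adjusted p = 0.310), and Rfxank had -0.93 (SE 0.25, adjusted p = 0.0918). Of 9 tested genes of the interferon-gamma signal 5 were higher and 4 lower, with none adjusted. The receptor chain Ifngr1 was nearly level at 239 ± 38.4, 238 ± 39.96, 225 ± 33.1 and 237 ± 43.2 FPKM in normal mice, colitis mice and the corresponding groups receiving BBR, and Ifngr2 (0.03) and Irf1 (0.30, adjusted p = 0.432) also missed the limit in colitis. Socs1, the feedback inhibitor, which was singled out after its values were seen, had the highest fold change of this list (1.43, adjusted p = 0.0753), and Ifng itself was below the filter.

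Among 10 endosomal proteases and cofactors, 2 rose in colitis, against 1.08% of all genes, and they are the 2 listed pathway genes past the adjusted limit in any comparison. Lgmn, a protease that trims the invariant chain and antigens, rose from 28.4 ± 1.39 to 99.6 ± 37.6 FPKM (log2 fold change 1.73, SE 0.28, adjusted p = 0.0218), and with BBR stood at 24.8 ± 0.976 (normal) and 38.9 ± 11.9 FPKM (colitis). Sppl2a, the intramembrane protease that removes the last stub of the invariant chain, rose from 60.8 ± 1.35 to 235 ± 50.8 FPKM (1.92, SE 0.40, adjusted p = 0.0466), with 59.8 ± 4.53 and 148 ± 116 FPKM in the BBR groups. Both calls depended on the mice kept, since 5 of the 6 omissions of a single mouse of these groups ended each of them (adjusted p up to 0.112 and 0.171). Sppl2a also missed the limit in 6 of 12 other settings (adjusted p = 0.0553 to 0.0571). The members of the list with the highest means, Ctsb (0.60, adjusted p = 0.261), Cst3 (-0.27, adjusted p = 0.547) and Ctsl (0.11, adjusted p = 0.897), did not pass. Under BBR in colitis 8 of the 10 were lower, with a median of -0.31 and none adjusted. Lgmn had -1.32 (SE 0.28, limma adjusted p = 0.435) and Sppl2a -0.91 (SE 0.40, adjusted p = 0.754).

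Of 8 genes of class II turnover and costimulation, 6 were higher and 2 lower in colitis mice (median 0.77), and all 8 were lower under BBR in colitis (median -1.003, 5 at an unadjusted p under 0.05 against 5.20% of all genes, none adjusted in either). Cd86, a ligand of CD28, had 0.980 ± 0.230 FPKM in normal and 1.94 ± 1.01 in colitis mice, and with BBR 0.877 ± 0.278 and 0.493 ± 0.398 FPKM (BBR in colitis: -1.88, SE 0.49, limma adjusted p = 0.486). Cd274, which encodes PD-L1, had -1.02 (SE 0.47, adjusted p = 0.780) in the same comparison, and the ubiquitin ligase gene Marchf8 (-0.25) and Icosl (-0.02), a costimulatory ligand, had adjusted p of 1.00. The 3 tested class II genes outside the members, H2-Oa, H2-Ob and H2-Eb2, averaged 0.916, 0.728 and 0.239 FPKM over the 12 mice. H2-Oa, a chain of the DM inhibitor H2-O, had 0.65 in colitis (adjusted p = 0.562) and -1.47 under BBR in colitis (SE 0.68, adjusted p = 0.788), and none of the 3 passed in any comparison.

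**Figure D4:**
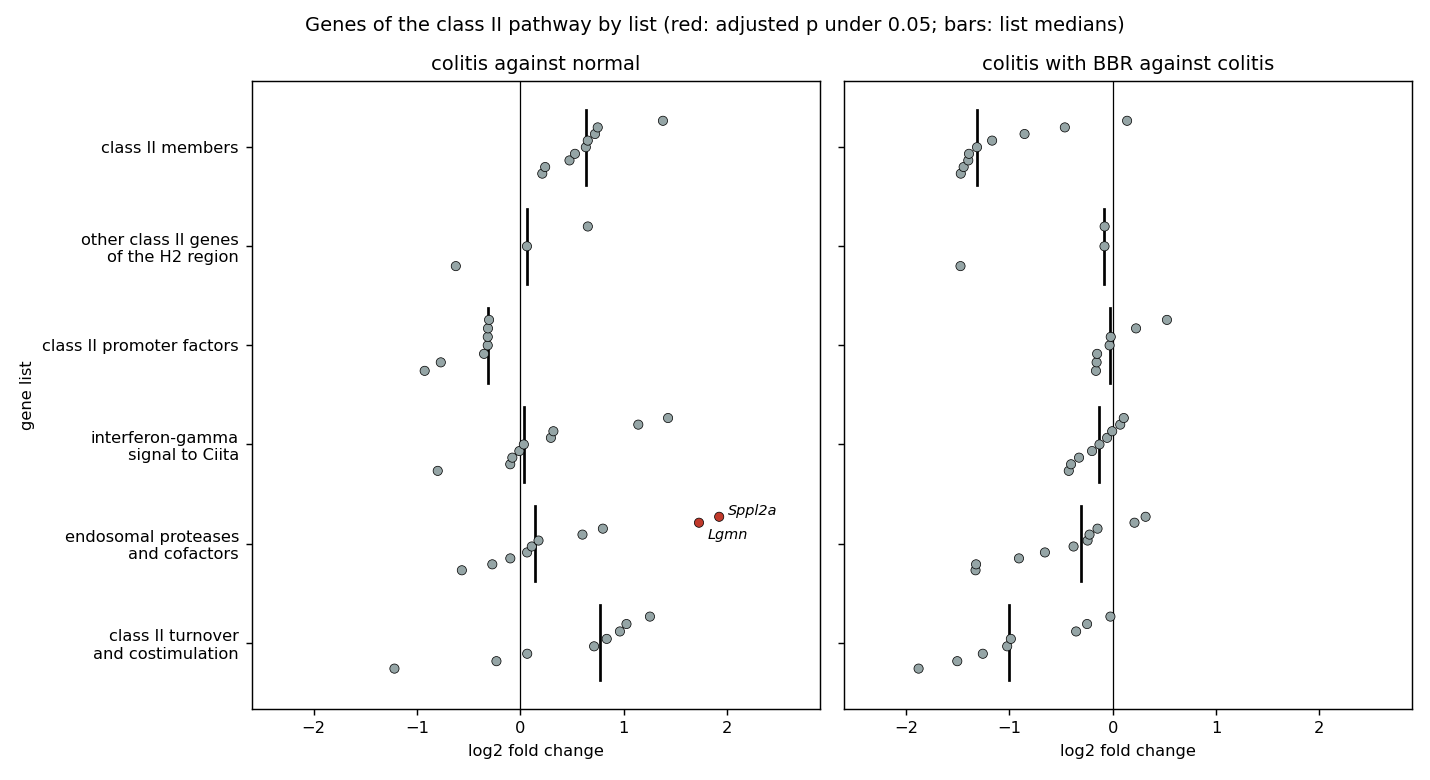
Log2 fold changes (log2 of FPKM plus 0.1) of the 9 members and of the genes of each pathway list, 1 point per gene, with bars for list medians, in colitis against normal mice and in colitis mice receiving BBR against colitis mice. Red points pass an adjusted p of 0.05, which are Lgmn (1.73) and Sppl2a (1.92) in colitis.

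The class II genes share the H2 region with the class I peptide supply genes, which lie between H2-DMb1 and H2-Ob in the RefSeq order. Of 8 tested neighbours that are not members, 6 were higher and 2 lower in colitis mice, and none passed. The highest were Tap1, a subunit of the peptide transporter (1.76, SE 0.49, adjusted p = 0.0927), Psmb9 (1.43, SE 0.43, adjusted p = 0.109) and Psmb8 (1.29, SE 0.37, adjusted p = 0.09997), both of the latter immunoproteasome subunits, all singled out after their values were seen. Under BBR in colitis they had -0.88, -0.61 and -0.63 (adjusted p of 0.899 or more). The 8 neighbours had a median of -0.35 in that comparison, with H2-Oa lowest at -1.47, and the 9 members one of -1.31. The difference between both sets of genes was not tested.

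Across the 12 mice the α and β chain genes, H2-DMa, H2-DMb1 and Cd74 varied together, with Pearson r of log2 values between 0.75 and 0.96 over their 15 pairs (median 0.91), and Ciita had r of 0.46 to 0.77 with them. H2-DMb2 had 0.28 to 0.56, and Ctss had -0.52 to 0.25 with the other 8. The genes were measured in the same 12 libraries, and the mice fall into groups and 2 sets of column totals, so the r values are descriptions only. The mean profile of the 9 members was compared with 11935 other genes of a mean of at least 1 FPKM. The 10 nearest were Hcls1 (r = 0.94), Itgax (0.90), Bst2 (0.89), Lcp1 (0.87), Tifab (0.87), Mpeg1 (0.85), Coro1a (0.85), H2-Q7 (0.83), Cd86 (0.83) and Sla (0.83). Itgax, the CD11c of dendritic cells, is also in the dendritic cell list. Of these 10, only Hcls1, Bst2 and Lcp1 were among the nearest 10 over the mice numbered 1 to 3.

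**Figure D5:**
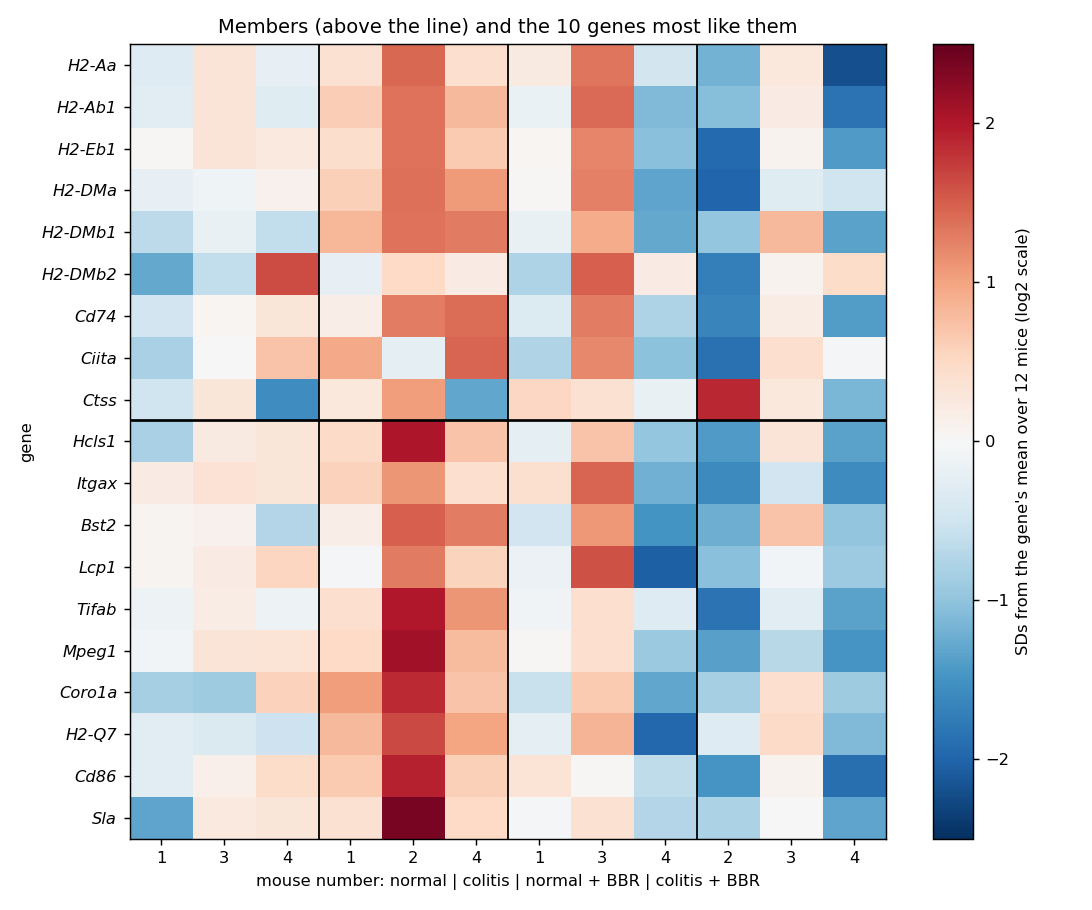
Log2 FPKM of the 9 members and of the 10 genes nearest to their mean profile, each centred and scaled over the 12 mice, with mice in columns by group. Ctss differs from the other members, and mouse 3 of the normal mice receiving BBR and mouse 2 of the colitis mice are high for most genes.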

How the data were processed

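Rectal RNA-seq was analysed for 12 mice, 3 in each of 4 groups, assigned by the labels. Per the study's methods the authors cleaned 50-base single-end reads of libraries depleted of ribosomal RNA with SOAPnuke 1.5.2; per the labels they aligned them with Bowtie2 2.2.5 (mm9) and quantified genes with RSEM 1.2.12. The authors deposited 1 table of 17734 genes (24 of them at 0 in every mouse), whose unit was taken as FPKM from the method and the values; TPM could not be told apart, and raw counts were not used here. Low values did not resolve into whole reads (41.2% to 53.1% lay within 0.1 of a whole number), so no count test was run, and the reads quoted per gene are approximate. Labels and methods differ in the library kit and in the days of BBR.

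From these values log2(FPKM + 0.1) was computed for 15315 genes (those whose mean reached 0.1). Groups were compared with limma 3.58.1 (R 4.3.3; 1 mean per group over all 12 mice, empirical Bayes with a trend, Benjamini-Hochberg over all tested genes, limit 0.05), checked on simulated data, and single values with the exact two-sided permutation test. The members and gene lists were chosen with earlier results of these data known. Named are the 9 members, listed pathway genes past the limit, the 3 of highest mean per list, the 10 genes of highest Pearson r with the members' mean profile, and marker genes where their list is described; Ifng, H2-Ea and the others outside this rule were picked after their values were seen. The lists hold 112 genes. Samples of the same number in normal mice and in normal mice receiving BBR deviated together from their group means (r of 0.290, 0.109 and 0.657, each over 0.1), so these numbers, from the labels, were treated as pairs, although BBR mouse 1 with normal mouse 3 (0.456) and BBR mouse 3 with normal mouse 1 (0.366) were closer than some of them; the replicate block changed no call there. The r of 0.657 was that of the mice numbered 4, which stand apart from the others in every group, so pairs by number are not established. Alternatives were pseudocount, filter, scaling, the samples fitted, trend, block and single mice left out. Promoter windows came from RefSeq GRCm38.p6, whose build differs from that of the files, so only the promoter windows are given coordinates. Transcript lengths, and the transcript sequences searched for shared windows, came from GENCODE vM21. The depths, length classes and reads per gene rest on these lengths.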

Additional observations from a re-analysis of the deposited data

How the results depend on the processing

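Across 12 planned settings (the fit of the compared groups alone could not be made for the interaction) the members past the adjusted limit stayed at 0 in every comparison except colitis against normal mice, where 1 (H2-DMb1) passed when the compared groups were fitted alone (log2 fold change 1.38, limma adjusted p = 0.0219) and 1 (H2-DMb1) with a replicate block (1.73, adjusted p = 0.0371); the cause was not tested. Of 491 log2 fold changes under these settings (for colitis mice receiving BBR against both normal groups, H2-Eb1 and H2-Aa alone were tallied) 480 kept direction and side of the limit. Those that reversed were H2-Eb1 (0.35) and Ciita (0.44) for BBR in normal mice over the mice numbered 1 to 3, and Ctss in the interaction under quantile normalization (0.0005). Beyond this tally, higher members went from 1 to 5 against normal mice and from 1 to 3 against normal mice receiving BBR under quantile normalization, and to 4 and 3 with each mouse centred on its median. Of the 10 genes nearest to the profile, 3 remained over the mice numbered 1 to 3. The members at an unadjusted p under 0.05 in colitis went from 1 (5.56% of all genes) to 5 with the replicate block (7.47%), 4 with the compared groups alone (5.98%), 3 centred on the median (9.42%) and 2 under quantile normalization (9.72%).

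Of the same fold changes with mice left out (344 values) 27 reversed, and outside the tally higher members went from 1 to as many as 4 and 3 against the normal groups. For BBR in normal mice the ranges were -0.39 to 0.38 (Cd74), -0.59 to 0.18 (Ciita), -0.089 to 0.67 (H2-Aa), -0.48 to 0.50 (H2-Ab1), -0.35 to 0.43 (H2-DMa), -0.27 to 0.71 (H2-DMb1), -0.17 to 1.05 (H2-DMb2) and -0.54 to 0.33 (H2-Eb1). For BBR in colitis they were -0.18 to 0.45 (Ctss) and -0.82 to 0.090 (H2-DMb2), for H2-DMb2 in colitis -0.29 to 0.93, and for Ctss in the interaction -0.52 to 0.11. Sppl2a passed for BBR in colitis without mouse 3 of the colitis mice receiving BBR (-1.51, adjusted p = 0.0215).

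Calls over all genes in colitis against normal mice (165) were 71 with a filter at a mean of 1, 91 with a pseudocount of 0.01, 258 under quantile normalization, 488 with the compared groups alone, 734 with the replicate block, 804 over the mice numbered 1 to 3, 1412 with a block for the mice numbered 4, and 11 to 211 with a mouse left out. Colitis and normal mice share 2 numbers (deviation r of 0.386 and 0.396) and so do the colitis groups (0.0777 and 0.751), so that the block there rests on a number alone. The 100 higher and 65 lower calls became 139 and 44 with each mouse scaled to the same total and 185 and 73 under quantile normalization. BBR in colitis (0 calls) gave 0 to 4 under the settings and 0 to 58 with a mouse left out. Colitis mice receiving BBR gave 0 to 2302 calls against normal mice receiving BBR (6) and 0 to 2157 against normal mice (3), and with a mouse left out 0 to 2255 and 0 to 2895. The pair of mice with high B cell markers was left out by a choice made after seeing the data.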
